A study of Mus musculus with 6 samples.

Results

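DNA replication and repair genes were followed as a list of 42 genes in livers of mice that lack Fah, the last enzyme of tyrosine breakdown. A gene was found through the accession of its array probes, and 41 of the 42 had a probe, with 53 probes in all, out of 18342 named genes. No probe matched Rrm2, a subunit of ribonucleotide reductase. The rule names genes and uses no measured value, though the list was written with earlier results of these data known. Of the 41 genes, 37 were well above background on all 6 arrays, and all 41 passed the filter on dim probes. Cdc6, Orc1, Ccne2 and Fancd2 were not well above background on at least 1 array.

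Each of 6 liver samples was measured on 1 single-colour array, and all mice were on the strain background BL6. Fah mice carried Fah_del_tm1Mgo. FCR mice carried the same allele together with Rag2_del_tm1Fwa and the deletion tm1Wjl of the common gamma chain, and so lack mature T and B cells and NK cells. NTBC, a drug that blocks an earlier step of tyrosine breakdown and protects such livers, was in the drinking water at 7.5 μg/ml. The groups were tumour of Fah mice after NTBC withdrawal (n = 2), healthy liver of a Fah mouse on continuous NTBC (n = 1), inflamed liver of FCR mice after withdrawal (n = 2) and normal liver of an FCR mouse on continuous NTBC (n = 1). In the tumour and inflamed groups replicate 1 had the regimen off, described as 2 courses of withdrawal and resupplementation, and replicate 2 had the regimen 2xoff/on. The labels do not settle in which phase of NTBC each of these livers was taken, and they give no ages. Every group, the controls included, carried the Fah allele. The labels do not say whether a group's samples are separate animals, and p-values measure only the spread between these samples. Slide 1 carried the continuous and off arrays and slide 2 both 2xoff/on arrays. Where groups were compared without regimen in the model, the spread also holds the difference between regimens and slides. In the 2 comparisons with regimen in the model it holds instead how far the difference between genotypes varies from regimen to regimen.

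A dividing cell copies its DNA once. In the G1 phase, the origin recognition complex, Cdc6 and Cdt1 load the ring of Mcm2 to Mcm7 onto origins. Cyclin-dependent kinases, among them the one that cyclin E activates, then start S phase, when Cdc45 and the GINS complex join the ring to make the active helicase, and polymerases, clamp and clamp loader copy the strands. Many of these genes are transcribed together under E2F factors. Adult hepatocytes rest outside the cycle and re-enter it after injury or loss of liver mass. Checkpoint and repair proteins guard the forks, and Uhrf1 with Dnmt1 copies DNA methylation onto the new strand.

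The promoters of 6 members are shown. Cdc6, Uhrf1, Mcm5 and Mcm6 were higher after withdrawal and hold the motif searched. Chek1 was higher and held no match within its window, and Mcm10 was the 1 gene that was lower. Of the genes that rose and had a promoter in the table, 8 held a match and 8 held none. Each is the stretch of 300 bases from 250 before to 50 after an annotated start, read 5′ to 3′ along the gene's strand, from RefSeq on GRCm38.p6. Capitals mark the letters of the E2F-type motif TTTCCCGC, TTTGGCGC, TTTCGCGC or TTTGCCGC on either strand, and matches may overlap. Cdc6 lies at chr11:98907901-98908200 on the plus strand, Uhrf1 at chr17:56304063-56304362 on the plus strand, Mcm5 at chr8:75109259-75109558 on the plus strand, Mcm6 at chr1:128359656-128359955 on the minus strand, Chek1 at chr9:36726609-36726908 on the minus strand and Mcm10 at chr2:5012742-5013041 on the minus strand. Uhrf1 has another annotated start, whose promoter held no match.
Cdc6: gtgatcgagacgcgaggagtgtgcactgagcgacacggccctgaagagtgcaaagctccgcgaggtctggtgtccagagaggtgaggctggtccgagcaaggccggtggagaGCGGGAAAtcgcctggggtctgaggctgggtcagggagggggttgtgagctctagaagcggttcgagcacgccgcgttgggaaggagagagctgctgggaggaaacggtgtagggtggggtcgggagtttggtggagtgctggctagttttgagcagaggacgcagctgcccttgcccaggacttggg
Uhrf1: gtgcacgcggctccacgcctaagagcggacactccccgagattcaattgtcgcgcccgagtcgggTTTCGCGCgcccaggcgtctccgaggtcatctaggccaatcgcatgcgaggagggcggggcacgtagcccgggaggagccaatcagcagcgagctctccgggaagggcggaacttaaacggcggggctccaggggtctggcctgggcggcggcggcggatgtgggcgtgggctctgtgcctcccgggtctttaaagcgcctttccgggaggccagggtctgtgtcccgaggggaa
Mcm5: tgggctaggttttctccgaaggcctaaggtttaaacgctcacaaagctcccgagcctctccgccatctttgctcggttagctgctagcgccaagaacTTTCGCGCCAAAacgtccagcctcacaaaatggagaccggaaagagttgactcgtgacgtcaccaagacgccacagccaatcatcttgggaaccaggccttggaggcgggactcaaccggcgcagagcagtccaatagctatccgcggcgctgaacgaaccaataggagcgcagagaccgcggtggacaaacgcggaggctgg
Mcm6: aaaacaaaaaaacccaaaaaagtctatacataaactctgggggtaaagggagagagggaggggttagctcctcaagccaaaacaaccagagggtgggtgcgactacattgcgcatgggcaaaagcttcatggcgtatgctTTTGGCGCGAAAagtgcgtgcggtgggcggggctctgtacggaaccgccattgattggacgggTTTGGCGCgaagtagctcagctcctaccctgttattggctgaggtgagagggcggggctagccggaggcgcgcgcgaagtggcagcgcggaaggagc
Chek1: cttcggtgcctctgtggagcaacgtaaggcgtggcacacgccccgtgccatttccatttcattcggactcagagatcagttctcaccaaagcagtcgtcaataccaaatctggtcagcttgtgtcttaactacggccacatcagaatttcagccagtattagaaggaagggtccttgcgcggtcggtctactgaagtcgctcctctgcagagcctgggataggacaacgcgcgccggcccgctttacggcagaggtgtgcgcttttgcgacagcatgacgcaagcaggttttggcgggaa
Mcm10: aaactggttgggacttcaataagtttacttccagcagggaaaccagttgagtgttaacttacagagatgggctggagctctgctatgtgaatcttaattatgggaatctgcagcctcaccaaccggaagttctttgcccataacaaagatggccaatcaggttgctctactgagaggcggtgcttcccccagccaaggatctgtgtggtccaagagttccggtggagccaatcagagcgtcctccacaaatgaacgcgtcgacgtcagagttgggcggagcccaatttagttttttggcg
Mcm6 held 3 matches, Mcm5 held 2, Cdc6 and this start of Uhrf1 held 1 each, and the Chek1 and Mcm10 windows held 0. The Chek1 and Mcm10 windows both end partway through a possible match. Bases past the window edge were not searched, so whether either match is completed there is not known here.

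Over the whole list, 35 genes had 42 promoters in the table. The motif stood in 15 of these 42 promoters (35.7%), against 744 of 32851 promoters of all genes (2.26%) and 1 of 23 promoters of G2/M genes. The CHR letters TTTGAA, found in many G2/M promoters, stood in 9.52% of the members' promoters, 73.9% of the G2/M promoters and 17.9% of all. CCAAT stood in 57.1% of the members' promoters, 82.6% of the G2/M promoters and 37.4% of all. Both strands were searched for each motif. The matches lay on either side of the start, from 219 bases before it in Dnmt1 to 40 bases after it in Pold1. A match is a run of letters and no measured site.

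**Figure D1:**
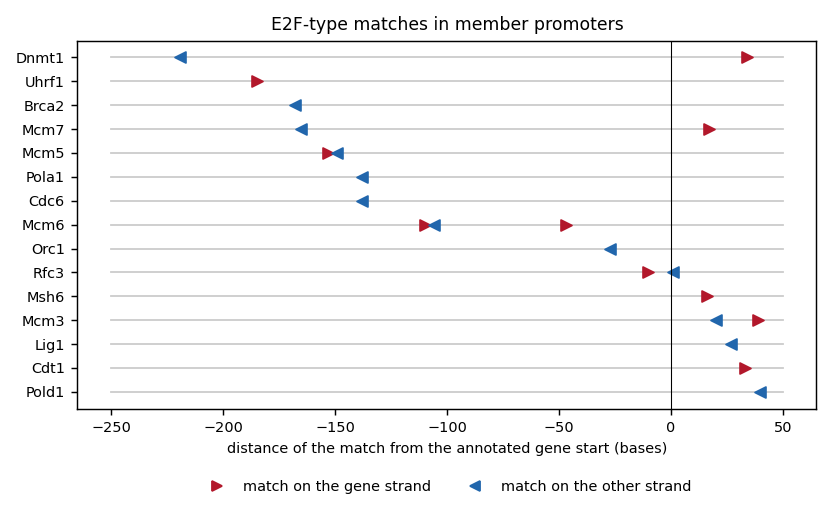
E2F-type letters in the promoters of 15 members. The horizontal axis is the distance of the first base of the match from the annotated start in bases, grey lines span the window searched, and triangles show the strand of each match. Mcm6 has 3 matches, all before the start. Mcm3, Lig1, Cdt1, Pold1 and Msh6 have matches only after it, and Mcm7, Rfc3 and Dnmt1 have matches on both sides.

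Levels are given as log2 signal relative to the 75th percentile of the same array, where 0 is the level of that percentile. Since each gene is read by its own probe, levels were compared between arrays and not between genes. The arrays had 43379 spots each, with 60.5% to 74.5% well above background, and 75th percentiles of 812 and 889 on the tumour arrays, 363 on the healthy array, 363 and 724 on the inflamed arrays and 374 on the normal array. Over all tested genes principal component 1 held 54.1% of the variance, with the healthy and normal arrays at 116 and 106 and the others from -80.7 to -37.1. On component 2 (21.8%) inflamed FCR replicate 1, off, stood apart at 104, while the other arrays lay between -53.0 and 7.99. Il2rg, the deleted common gamma chain, was well above background on all 3 Fah arrays. On the FCR arrays it was not, with levels of -7.60 and -7.74 in inflamed and -6.70 in normal liver. Rag2 was well above background on no array. Fah gave signal on all 6, and whether the probe falls inside the deletion is not known here, so it checks nothing. The labelled tissue was checked on hepatocyte markers: all 5 measured genes were well above background on every array, with Alb between 8.79 and 10.3. In whole liver, more cells that express a gene and more RNA of it per cell cannot be told apart.

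The median level over the 41 members was 0.90 and 1.09 in tumour, -0.92 in healthy Fah liver, 0.34 and 0.18 in inflamed FCR liver and -0.87 in normal FCR liver. Both tumour arrays lay above both inflamed arrays, and these lay above the 2 arrays on continuous NTBC. For 22 of 41 members both tumour arrays were above all 4 other arrays, against 11.0% of all tested genes.

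**Figure D2:**
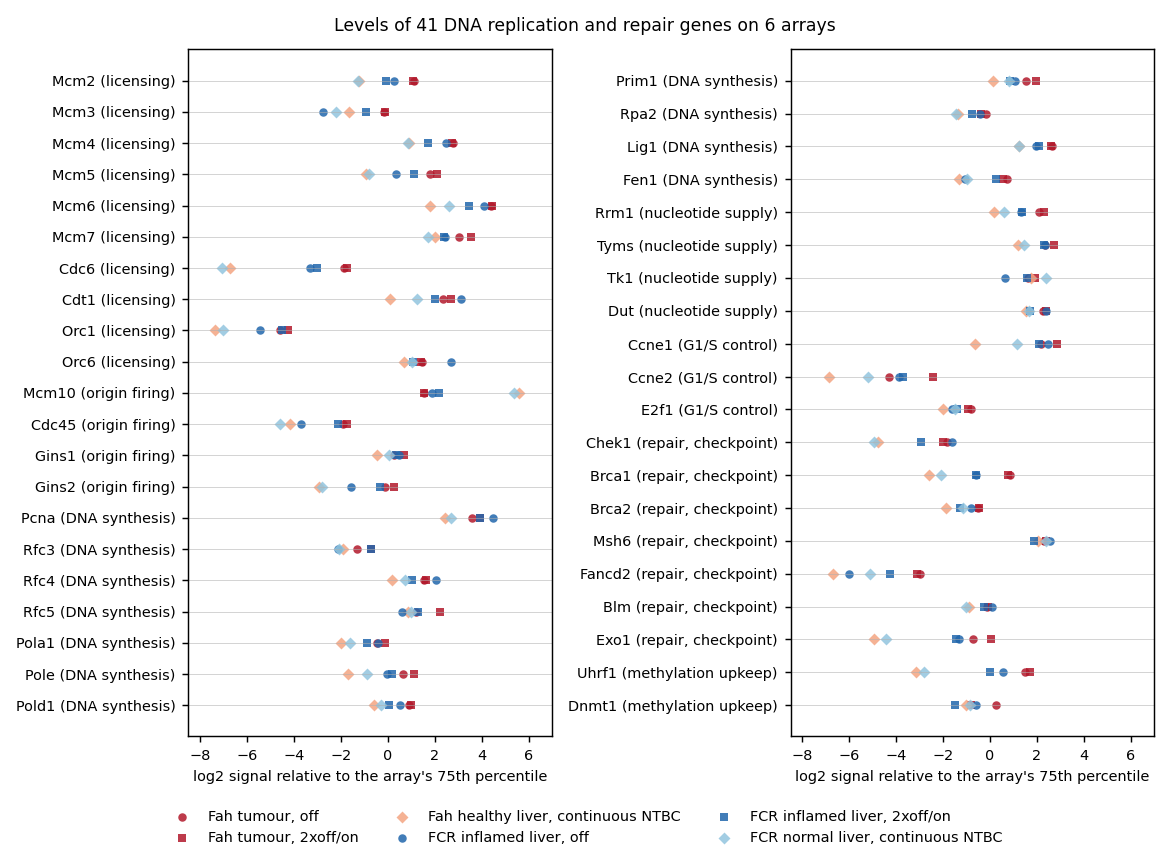
Levels of the 41 members on 6 arrays, with 1 row per gene ordered by role and the level (log2, 0 at the 75th percentile of that array) on the horizontal axis. Red marks are Fah tumour, orange marks Fah healthy liver, dark blue marks FCR inflamed liver and light blue marks FCR normal liver. The pale diamonds of continuous NTBC lie left of the other marks in most rows, and right of them for Mcm10.

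NTBC regimen was compared with genotype in the model, setting the 4 arrays after withdrawal (tumour and inflamed liver) against the 2 on continuous NTBC. Replication genes were higher after withdrawal across nearly all roles: 21 of 41 members rose, 1 fell and 19 did not pass (limma, Benjamini-Hochberg over 15382 genes). Cdc6, Orc1 and Ccne2, counted among the 21, were well above background only on the arrays after withdrawal. They passed the filter on dim probes through those arrays alone, so their calls add no support. Among all tested genes 22.2% passed, 13.9% higher and 8.28% lower. The members' median difference was 1.28 on the log2 scale, against -0.02 for all genes, and 1.10 when members not well above background on continuous NTBC were set at their bound. The difference was positive for 39 of 41, against 49.2% of all genes, the exceptions being Mcm10 and Tk1; scaled by array medians, which moves the median of all genes to -0.33, Msh6 and Dnmt1 turned negative too. For 30 members all 4 arrays after withdrawal lay above both continuous arrays, and for 1 below, against 20.0% and 20.9% of all genes. Without inflamed FCR replicate 1, the array that stood apart, the median was 1.26 and 17 members passed, and 15 of these were among the 22. With each array's values raised to a common floor, only Mcm10 passed. In simulated data for this comparison, with 200 changed genes, changes of 2 on the log2 scale were not recovered. Changes of 4 were recovered at 93.3%. In the data 3415 genes passed, which makes the adjusted threshold less strict than in the simulation, and Lig1 passed at 1.06. The simulated rates therefore do not give the sensitivity here. A difference that did not pass is no sign of an equal level.

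Licensing genes load the helicase ring, and 7 of the 10 rose. Cdc6, the loader of the ring, was at -1.87 and -1.76 in tumour and -3.32 and -3.00 in inflamed liver, against -6.73 in healthy and -7.06 in normal liver. On neither continuous array was it well above background, so its rise is given as a bound of at least 7.10-fold (fitted difference 4.41 ± 0.45, adjusted p = 0.00088). Its second probe differed by 3.45. With normexp background correction the fitted difference of Cdc6 was 0.90 (adjusted p = 0.056), and with the authors' values 1.86 (adjusted p = 0.0101), both below the bound. Orc1, the ATPase subunit of the origin recognition complex, was at -4.59 and -4.24 in tumour and -5.44 and -4.50 in inflamed liver, against -7.38 and -7.01 on continuous NTBC. Orc1 rose by at least 1.53-fold (adjusted p = 0.0115), and under another background correction its difference was -0.17. Both genes were dim or undetected without withdrawal and measurable on all 4 arrays after it.

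The ring subunits Mcm2, Mcm4, Mcm5 and Mcm6 rose, and Mcm3 and Mcm7 did not pass. Mcm5 was at 1.81 and 2.09 in tumour and 0.34 and 1.10 in inflamed liver, against -0.92 in healthy and -0.79 in normal liver. Its rise of 2.19 ± 0.39 (adjusted p = 0.00608), a ratio of 4.57, was the largest of the ring. Mcm6 was at 4.39 and 4.44 in tumour and 4.09 and 3.44 in inflamed liver, against 1.78 in healthy and 2.61 in normal liver, a rise of 1.90 ± 0.41 (adjusted p = 0.0134). The 4 arrays after withdrawal stood above both others for each of these subunits. Mcm2 was at 1.12 and 1.09 in tumour and 0.26 and -0.08 in inflamed liver, against -1.21 and -1.29 on continuous NTBC, and rose by 1.85 ± 0.35 (adjusted p = 0.00819). Mcm4 was at 2.79 and 2.73 in tumour and 2.49 and 1.70 in inflamed liver, against 0.90 and 0.85, and rose by 1.56 ± 0.32 (adjusted p = 0.0122). Mcm2 and Mcm4 had nearly equal levels on the 2 continuous arrays. Mcm7 was at 3.03 and 3.54 in tumour and 2.42 and 2.40 in inflamed liver, against 2.00 in healthy and 1.71 in normal liver, a difference of 0.99 ± 0.31 (adjusted p = 0.0556). Mcm3 was at -0.18 and -0.12 in tumour and -2.76 and -0.93 in inflamed liver, against -1.66 in healthy and -2.20 in normal liver. The groups overlapped for Mcm3 alone among the ring genes, because inflamed FCR replicate 1 was the lowest of the 6 arrays.

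Cdt1, the partner of Cdc6 in loading, was at 2.36 and 2.70 in tumour and 3.10 and 2.01 in inflamed liver, against 0.07 in healthy and 1.23 in normal liver. Cdt1 rose by 1.90 ± 0.41 (adjusted p = 0.0141), and its highest array was an inflamed one. Orc6, a small subunit of the origin complex, differed by 0.79 ± 0.37 (adjusted p = 0.165).

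As read by their probes, genes of origin firing moved in both directions. Gins2, a GINS subunit, was at -0.11 and 0.27 in tumour and -1.55 and -0.34 in inflamed liver, against -2.92 in healthy and -2.79 in normal liver, and rose by 2.42 ± 0.41 (adjusted p = 0.00516). Cdc45, which completes the active helicase, was at -1.90 and -1.73 in tumour and -3.68 and -2.12 in inflamed liver, against -4.15 and -4.58, and rose by 2.01 ± 0.45 (adjusted p = 0.0164). For both genes inflamed FCR replicate 1 was the lowest of the 4 arrays after withdrawal. Gins1 differed by 0.64 ± 0.32 without passing. Mcm10, a scaffold that binds the helicase and primase at origins, was at 1.54 and 1.56 in tumour and 1.90 and 2.20 in inflamed liver, against 5.57 in healthy and 5.39 in normal liver. Its 6 values fell into 2 ranges more than 3 log2 units apart. Mcm10 fell by 3.68 on the log2 scale (SE 0.32, adjusted p = 0.000468), a level 12.9-fold higher on continuous NTBC. It was read by 1 probe, so no other probe of the gene could be set beside this value. The sequence of that probe was not checked against the transcript, so whether it reads Mcm10 alone is not known here.

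Genes of DNA synthesis were positive in all 11 cases, and 4 rose: Pcna, Pola1, Pole and Lig1. Pcna, the sliding clamp, was at 3.57 and 3.93 in tumour and 4.47 and 3.92 in inflamed liver, against 2.44 in healthy and 2.69 in normal liver. Its rise was 1.41 ± 0.33 (adjusted p = 0.0183), and inflamed liver was as high as tumour or higher. Pole, the catalytic subunit of the leading-strand polymerase, was at 0.66 and 1.11 in tumour and -0.05 and 0.18 in inflamed liver, against -1.68 in healthy and -0.87 in normal liver, and rose by 1.75 ± 0.42 (adjusted p = 0.0206). Pola1, which with primase starts each strand, was at -0.46 and -0.11 in tumour and -0.41 and -0.89 in inflamed liver, against -1.99 and -1.60, and rose by 1.33 ± 0.37 (adjusted p = 0.0362). Lig1, which seals the fragments of the lagging strand, was at 2.63 and 2.58 in tumour and 1.94 and 2.08 in inflamed liver, against 1.25 on both continuous arrays. The rise of Lig1 was 1.06 ± 0.31 (adjusted p = 0.0406). All 4 of these genes kept the arrays after withdrawal apart from the continuous ones. Fen1, the nuclease that trims lagging-strand fragments, was at 0.72 and 0.56 in tumour and -1.07 and 0.26 in inflamed liver, against -1.33 in healthy and -1.001 in normal liver. Fen1 differed by 1.28 ± 0.45 without passing (adjusted p = 0.0765), and inflamed FCR replicate 1 overlapped the continuous arrays. The clamp loader subunits Rfc3, Rfc4 and Rfc5, the polymerase Pold1, the primase Prim1 and the single-strand binding subunit Rpa2 differed by 0.41 to 1.09 and did not pass.

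Of the nucleotide supply genes, Rrm1 and Tyms rose. Rrm1, the large subunit of ribonucleotide reductase, was at 2.07 and 2.31 in tumour and 1.32 and 1.38 in inflamed liver, against 0.17 in healthy and 0.60 in normal liver, a rise of 1.39 ± 0.36 (adjusted p = 0.0292). Tyms, thymidylate synthase, was at 2.35 and 2.72 in tumour and 2.35 and 2.28 in inflamed liver, against 1.20 and 1.45, a rise of 1.10 ± 0.31 (adjusted p = 0.0355). The groups did not overlap for these genes. Tk1, thymidine kinase of the salvage route, was at 1.60 and 1.92 in tumour and 0.62 and 1.57 in inflamed liver, against 1.73 in healthy and 2.37 in normal liver. Normal FCR liver had the highest value of Tk1 and the groups overlapped (difference -0.62 ± 0.38, adjusted p = 0.276). Dut, which removes dUTP, differed by 0.58 ± 0.32 (adjusted p = 0.231).

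Among the G1/S regulators both E cyclins rose. Ccne1 was at 2.15 and 2.84 in tumour and 2.47 and 2.07 in inflamed liver, against -0.65 in healthy and 1.13 in normal liver, a rise of 2.14 ± 0.48 (adjusted p = 0.0164). The 2 continuous arrays were 1.78 apart for Ccne1, and healthy Fah liver was the lower. Ccne2 was at -4.29 and -2.41 in tumour and -3.87 and -3.72 in inflamed liver, against -6.87 in healthy and -5.19 in normal liver, where it was not well above background. Its rise was at least 2.99-fold (adjusted p = 0.0263). With normexp background correction and with the authors' values, given further on, its fitted difference was below that bound and did not pass. E2f1, an activator of S-phase genes, was at -0.83 and -0.93 in tumour and -1.63 and -1.41 in inflamed liver, against -2.01 in healthy and -1.47 in normal liver. For E2f1 both tumour arrays and inflamed FCR replicate 2 lay above the continuous arrays and inflamed replicate 1 did not, and it did not pass (0.54 ± 0.39, adjusted p = 0.363).

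Repair and checkpoint genes ranged widely. Exo1, an exonuclease of mismatch repair and end resection, was at -0.72 and 0.04 in tumour and -1.33 and -1.45 in inflamed liver, against -4.95 in healthy and -4.42 in normal liver, and rose by 3.82 ± 0.47 (adjusted p = 0.00147), a ratio of 14.1. Chek1, the kinase of the S-phase checkpoint, was at -1.85 and -2.00 in tumour and -1.64 and -2.94 in inflamed liver, against -4.76 and -4.96, and rose by 2.76 ± 0.42 (adjusted p = 0.00345). Brca1, of recombination repair, was at 0.84 and 0.77 in tumour and -0.60 and -0.59 in inflamed liver, against -2.62 in healthy and -2.08 in normal liver, and rose by 2.46 ± 0.46 (adjusted p = 0.0083). On this probe Brca1 stood at 3 separate levels, highest in tumour, with replicates within 0.08 of each other. Its second probe, well above background on only 2 arrays, did not show 3 levels. That probe was at -3.49 and -4.54 in tumour and -8.01 and -5.80 in inflamed liver, against -7.02 in healthy and -7.82 in normal liver. Fancd2, of crosslink repair, was at -2.98 and -3.13 in tumour and -6.00 and -4.27 in inflamed liver, against -6.70 in healthy and -5.10 in normal liver. Only tumour stood above the other arrays, and the regimen difference of Fancd2 did not pass (1.81 ± 0.83, adjusted p = 0.156). Brca2, Blm and the mismatch repair gene Msh6 differed by 0.75, 0.85 and 0.08 and did not pass, and Msh6 lay between 1.87 and 2.55 on all 6 arrays.

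Of the methylation pair, Uhrf1, which brings the methyltransferase to new DNA, was at 1.48 and 1.72 in tumour and 0.54 and -0.01 in inflamed liver, against -3.17 in healthy and -2.81 in normal liver. Uhrf1 rose by 3.92 ± 0.44 (adjusted p = 0.00117), a ratio of 15.1, and its 2 probes differed by 3.92 and 3.68. Dnmt1, the methyltransferase itself, was at 0.25 and -0.80 in tumour and -0.60 and -1.51 in inflamed liver, against -1.02 and -0.87, with overlapping groups and a difference of 0.28 ± 0.36 (adjusted p = 0.624).

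**Figure D3:**
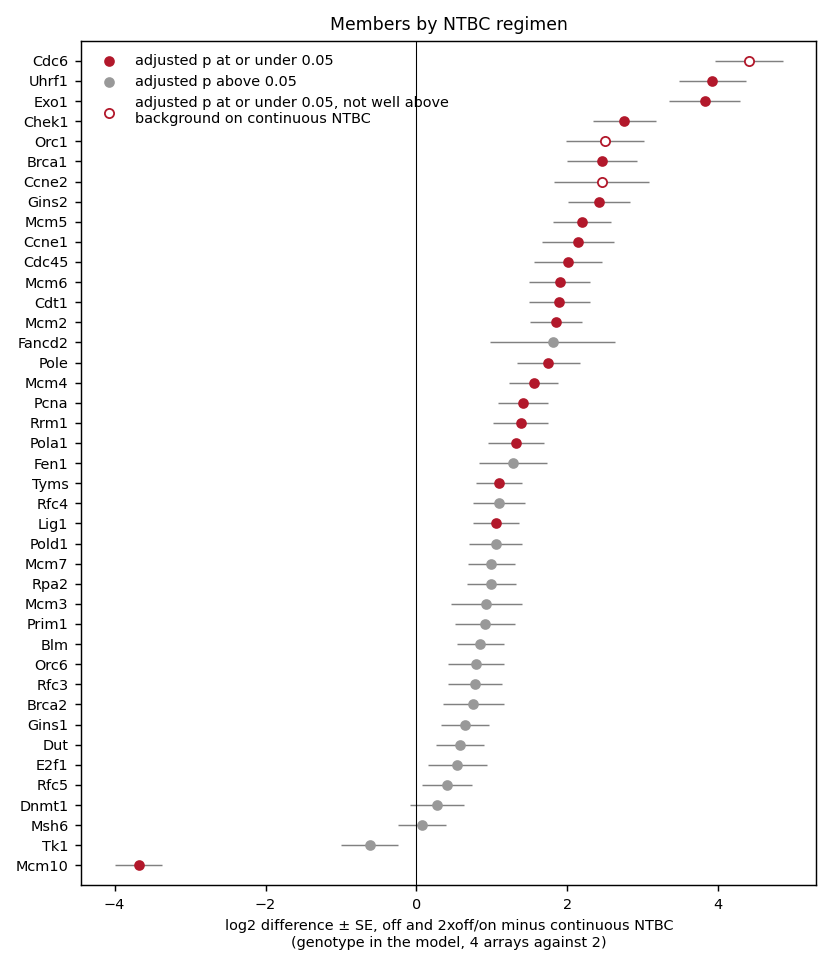
Log2 difference between the 4 arrays after NTBC withdrawal and the 2 on continuous NTBC, with its standard error, for 41 members. Filled red marks passed the test, open red marks passed but were not well above background on continuous NTBC, and grey marks did not pass. Cdc6 is at the top with 4.41 and Mcm10 at the bottom with -3.68.

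Calls of dim genes depended on the background correction. With normexp the differences of Cdc45 (0.61, adjusted p = 0.208), Ccne2 (0.05, adjusted p = 0.938) and Chek1 (0.90, adjusted p = 0.0527) did not pass, while Exo1 (1.81) and Gins2 (1.57) were smaller and passed. With the authors' values Orc1 (0.60, adjusted p = 0.0756), Ccne2 (0.87, adjusted p = 0.108) and Pola1 (0.98, adjusted p = 0.0925) did not pass, while Chek1 (1.67) and Cdc45 (1.16) were smaller and passed. Scaled by array medians, Pola1, Lig1, Rrm1 and Tyms did not pass (adjusted p = 0.0677, 0.105, 0.0513 and 0.0926).

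Of the 12 members with several probes, all 12 had probes that agreed in sign for this comparison. Set beside the E2F-type letters, 8 of 15 genes with a match rose, with a median of 1.06, and 8 of 19 genes without one rose and 1 fell, with a median of 1.09. These are descriptions of the 34 of 35 genes with a promoter that are on the array. Chek1 and Mcm10, whose windows end partway through a possible match, were counted as genes without one.

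Each genotype was then compared on its own, which shares the continuous and withdrawn arrays with the comparison above. Again Cdc6 passed the filter on dim probes only through arrays after withdrawal, so its call adds no support. In Fah mice tumour was set against healthy liver. Here 7 members rose (Mcm5, Mcm6, Cdc6, Ccne1, Brca1, Exo1 and Uhrf1) and Mcm10 fell, 8 of 41, against 5.04% of all tested genes (3.91% higher and 1.13% lower). The median was 1.63, against -0.08 for all genes, 40 of 41 were positive against 46.7%, and both tumour arrays were above the healthy array for 39 members and below it for 1, against 35.8% and 42.8% of all genes. Uhrf1 differed by 4.77 ± 0.64 (adjusted p = 0.00763), Exo1 by 4.61 ± 0.71 (adjusted p = 0.0114), Brca1 by 3.43 ± 0.62 (adjusted p = 0.0194) and Ccne1 by 3.14 ± 0.62 (adjusted p = 0.0245). Mcm5 rose by 2.88 ± 0.64 and Mcm6 by 2.64 ± 0.58 (adjusted p = 0.0372 and 0.036). No gene of DNA synthesis or nucleotide supply passed here, but with slide as a block 18 members did, among them Pole and Rrm1. Cdc6 rose by at least 9.89-fold (adjusted p = 0.0117), but its fitted difference was 1.20 with normexp (adjusted p = 0.295) and 2.22 with the authors' values (adjusted p = 0.057), both below that bound. Exo1 was at 2.23 with normexp and passed. Mcm10 fell by 4.03 on the log2 scale (SE 0.56, adjusted p = 0.00815). Fancd2 was at least 4.18-fold higher in tumour without passing (adjusted p = 0.0674). The count depended on the arrays that set the spread, with 20 members passing without inflamed FCR replicate 1, 20 without inflamed FCR replicate 2 and 4 without tumour replicate 2. The comparison rests on 1 healthy array, whose spread was taken from the paired groups. For these alternative fits, here and in the comparisons below, the share of all genes that passed is not given. Their counts are therefore not read as a result about the members.

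In FCR mice inflamed liver was set against normal liver. The median was 0.86, against 0.04 for all genes, and 34 of 41 members were positive, against 51.6%. Here too Cdc6 passed the filter on dim probes only through arrays after withdrawal. Only Cdc6 rose, by at least 5.09-fold (fitted 3.90 ± 0.77, adjusted p = 0.0449), and only Mcm10 fell, by 3.34 on the log2 scale (SE 0.56, adjusted p = 0.0248), 2 of 41 against 1.76% of all tested genes (1.55% higher and 0.202% lower). Uhrf1 differed by 3.07 ± 0.64 (adjusted p = 0.0538), Exo1 by 3.03 ± 0.71 (adjusted p = 0.0767) and Chek1 by 2.68 ± 0.81 (adjusted p = 0.16), none past the threshold. With slide as a block these 3 genes passed as well, 5 members in all. Both inflamed arrays lay above the normal array for 30 members and below it for 2, Mcm10 and Tk1, against 35.4% and 31.8% of all genes. Without inflamed FCR replicate 1 the median was 0.83 and 3 members passed, Uhrf1 the added one, and without replicate 2 it was 0.90 and 7 passed. With quantile normalization Cdc6 at 3.58 and Mcm10 at -3.11 kept most of their difference without passing (adjusted p = 0.0919 and 0.0509). Cdc6 was at 0.59 with normexp (adjusted p = 0.944) and 1.501 with the authors' values (adjusted p = 0.234), both below the bound, and Mcm10 at -3.07 with the authors' values (adjusted p = 0.0577). Scaled by array medians, with probes averaged and with no filter, Cdc6 did not pass either (3.65, 3.56 and 3.90; adjusted p = 0.0534, 0.0614 and 0.0811).

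The difference between the 2 withdrawal differences was tested in the same model. It was larger in Fah mice for 37 of 41 members, against 46.8% of all genes, and the exceptions were Orc6, Mcm10, Pcna and Blm. Its median was 0.94, against -0.06 for all genes, and 0.86 without inflamed FCR replicate 1. No member passed, and no gene of all 15382 did (0.0%, limma). At an unadjusted p under 0.05 stood 2 members, Ccne1 with 2.01 ± 0.87 and Fancd2 with 3.68 ± 1.36, against 2.15% of all genes. In simulated data for this comparison, with 200 changed genes, changes of 4 were not recovered. A difference that did not pass is no sign of an equal response in the 2 genotypes. On continuous NTBC, healthy Fah liver was below normal FCR liver by a median of 0.33, and above it for 12 of 41 members. Over all tested genes the median of healthy Fah minus normal FCR liver was -0.065, and 6622 of 15382 were higher in healthy Fah liver.

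**Figure D4:**
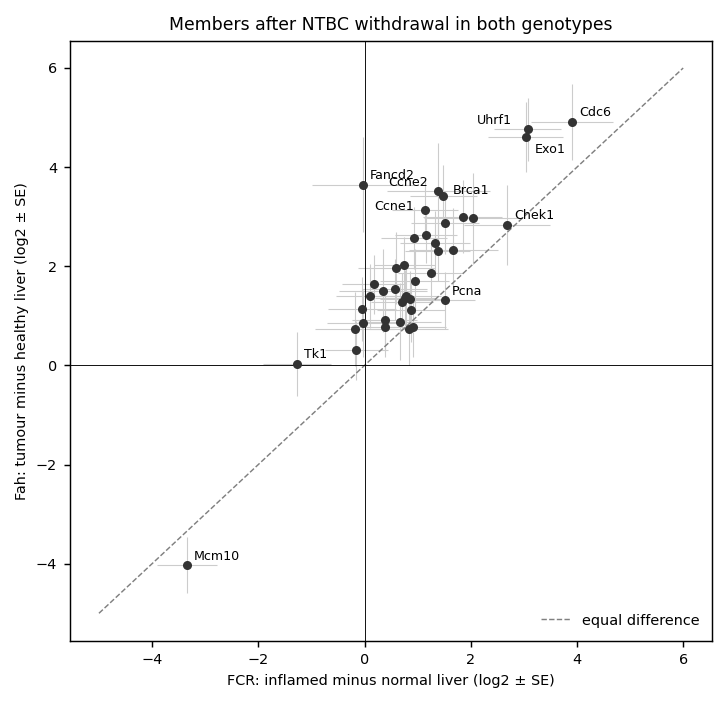
Difference of each member between tumour and healthy Fah liver (vertical axis) against that between inflamed and normal FCR liver (horizontal axis), log2 with standard errors, from 2 arrays against 1 in each genotype. The dashed line marks equal differences. Most members lie above it, Fancd2 farthest, and Mcm10 is negative on both axes.

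Tumour was compared directly with inflamed FCR liver, 2 arrays each, at the same regimens. Replication genes were mostly higher in tumour, but none of the 41 passed, against 0.215% of all tested genes (limma, smallest adjusted p = 0.427). At an unadjusted p under 0.05 were 5 members, against 9.15% of all genes: Fancd2 with a difference of 2.08 ± 0.78, Mcm3 with 1.70 ± 0.68, Brca1 with 1.40 ± 0.51, Uhrf1 with 1.33 ± 0.52 and Mcm5 with 1.23 ± 0.52. The difference was positive for 36 of 41, against 42.5% of all genes, with a median of 0.65 against -0.13 for all genes, and the exceptions were Cdt1, Orc6, Mcm10, Pcna and Blm. Under quantile normalization 3 of these exceptions, Cdt1, Pcna and Blm, were positive, while with the array median Gins1 and Rfc4 were negative too. The groups did not overlap for 23 members that were higher in tumour and for 1 that was lower, Mcm10, against 16.1% and 23.8% of all genes. By role the median was 0.77 for licensing, 0.53 for firing, 0.59 for synthesis, 0.47 for nucleotide supply, 0.44 for G1/S control, 0.54 for repair and checkpoint and 1.06 for the methylation pair. Within slide 1 (off) the members' median was 0.59, and within slide 2 (2xoff/on) it was 0.77. With slide as a block Fancd2 and Mcm3 passed (adjusted p = 0.0226 and 0.0256), and Mcm3 passed without inflamed FCR replicate 2 (adjusted p = 0.03). Without inflamed FCR replicate 1 the median was 0.55 and none passed, with Mcm3 at 0.78 and Fancd2 at 1.21. With normexp Fancd2 was at 0.39, and it was not well above background on inflamed replicate 1. Tumour tissue, genotype and lymphocytes cannot be told apart between these groups.

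Fah was also compared with FCR over all 3 regimens, with regimen in the model. No member passed (0.312% of all genes did), the median was 0.29 against -0.11 for all genes, and 32 of 41 were positive, against 41.7%. Mcm3 and Cdc6 had an unadjusted p under 0.05, against 11.7% of all genes. Leaving out any 1 of the tumour and inflamed arrays gave a median of 0.13 to 0.20. Removing an array takes its partner of the same regimen out of this estimate as well, so either removal is the same check. Without tumour replicate 2 or without inflamed FCR replicate 2 only 23 of 41 were positive, and without either replicate 1 it was 29. Higher in Fah mice in all 3 regimens were 8 members, Mcm2, Mcm3, Mcm4, Mcm7, Cdc6, Cdc45, Rpa2 and Lig1, and lower in all 3 were 0, against 13.2% and 24.5% of all genes. By regimen the median of Fah minus FCR was -0.33 on continuous NTBC, 0.59 on off and 0.77 on 2xoff/on, and 12, 27 and 39 of 41 members were positive. Over all 15382 tested genes these medians were -0.065, -0.296 and -0.023, and 6622, 6038 and 7408 genes were positive.

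The series' design text sets both tumour arrays against normal FCR liver and inflamed FCR replicate 2. No member and no gene of 15175 passed there (0.0%), and 12 members had an unadjusted p under 0.05, against 11.6% of all genes. The members' median was 0.96, and 39 of 41 were positive, against 40.8%. Between the regimens, 2xoff/on minus off had a median of 0.12 in tumour, with 30 of 41 positive, and of -0.12 in inflamed liver, with 18 positive. Over all 15382 tested genes the medians were 0.06 and -0.16, with 8270 and 6837 positive. The members' values in inflamed liver were thus near those of all genes. Regimen and slide cannot be told apart in these last values, which have 1 array on each side.

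Other genes of replication, repair and cell division were set beside the members. For NTBC regimen 14 of 45 further replication genes rose and 0 fell, with a median of 0.48, where 13.9% of all genes rose and 8.28% fell, as holds for the next 3 lists. Clspn, the checkpoint mediator claspin, rose by at least 2.35-fold (adjusted p = 0.00376). Prim2, the large primase subunit, was at -2.80 and -4.01 in tumour and -3.17 in healthy liver, against 0.10 and -0.79 in inflamed and -0.49 in normal liver. Prim2 did not follow NTBC regimen (-0.04 ± 0.36), and over regimens it was lower in Fah mice by 2.93 on the log2 scale (adjusted p = 0.0174), whereas its partner Prim1 was a member that did not pass. Of 40 further repair genes 8 rose and 3 fell, with a median of 0.31; Rad51ap1, a helper of recombination, rose by 3.05 ± 0.61 (adjusted p = 0.0107), while Chek2 and Rad54l did not pass. Of 21 tested G1/S regulators outside the list 5 rose and 2 fell, with a median of 0.68. Ccna2, cyclin A, rose by 3.66 ± 0.45 (adjusted p = 0.00147) and Mycn fell by 1.97 on the log2 scale (adjusted p = 0.0267). Of 25 G2/M genes 24 rose, with a median of 3.90, among them Cdkn3 with 4.55 ± 0.72, Ttk, of the spindle checkpoint, with at least 3.66-fold, and Top2a with 3.78 ± 0.70. In tumour against inflamed liver the medians were 0.15, 0.22, 0.53 and 1.60 for these 4 lists in the same order, and none of their genes passed.

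**Figure D5:**
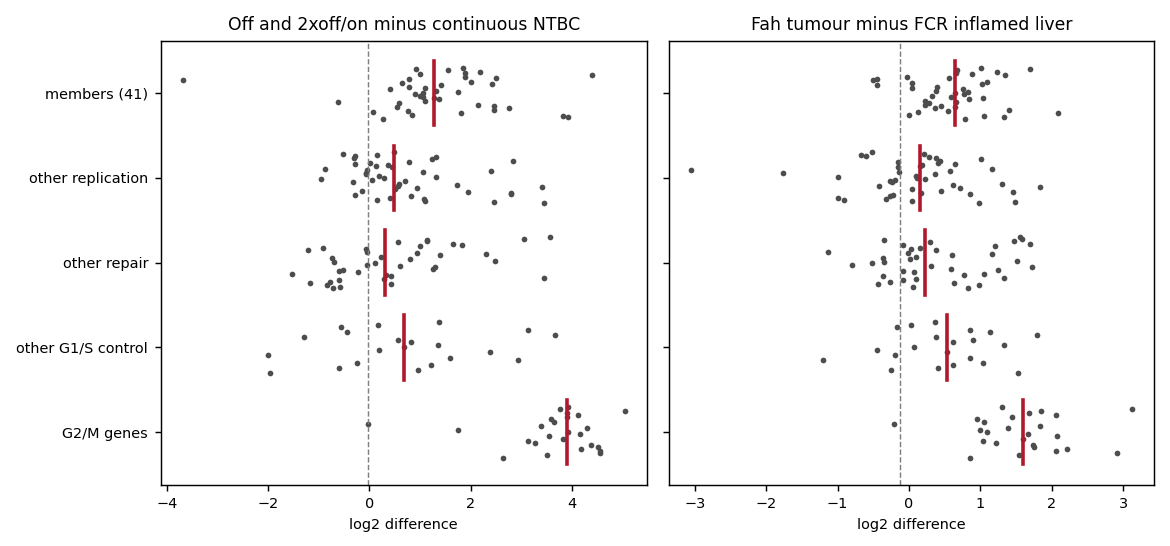
Log2 difference of each gene, by list, for NTBC withdrawal against continuous NTBC (left) and for Fah tumour against FCR inflamed liver (right). Dots are genes, red bars list medians and the dashed line the median of all tested genes. On the left the members' median is 1.28, between 0.48 for other replication genes and 3.90 for G2/M genes.

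Markers of several cell types moved with NTBC regimen as well. Over all tested genes 13.9% rose and 8.28% fell by regimen, and the counts below are to be read beside these shares. The summed signal of 5 hepatocyte markers, as a multiple of each array's 75th percentile, was 711 and 583 in tumour and 1085 and 809 in inflamed liver, against 1869 in healthy and 1655 in normal liver, and 2 of 5 fell. Summed stellate and fibroblast markers were 174 and 202 in tumour and 111 and 92.8 in inflamed liver, against 33.9 and 35.6, and 5 of 6 rose. Biliary and progenitor markers were 150 and 56.3 in tumour and 56.2 and 15.6 in inflamed liver, against 10.1 and 9.04, and 4 of 5 rose. The groups did not overlap for these 3 sums. Macrophage markers were 72.5 and 122 in tumour and 269 and 34.3 in inflamed liver, against 23.8 and 29.6, with 4 of 7 risen. Neutrophil markers were 11.8 and 29.1 in tumour and 20.5 and 36.3 in inflamed liver, against 3.46 and 1.90, with 3 risen and 1 fallen of 5. T cell markers summed to 1.19 and 1.03 in tumour and 0.56 and 0.77 in inflamed liver, against 0.98 in healthy and 0.73 in normal liver. Such sums are set mostly by the brightest markers. Of 6 tested T cell markers 4 were higher and 2 lower in tumour than in inflamed liver, with a median difference of 2.19. On the FCR arrays 4, 4 and 3 of the 7 measured were well above background. By regimen 1 of 6 tested T cell and 1 of 6 NK markers rose. B and plasma cell markers summed to 4.11 and 2.38 in tumour and 0.30 and 0.35 in inflamed liver, against 1.07 and 0.31. NK markers summed to 0.79 and 1.11 in tumour and 0.18 and 0.13 in inflamed liver, against 0.24 and 0.079. For all 3 lymphocyte sums the tumour arrays and the healthy Fah array lay above every FCR array, and 1 gene, Jchain, passed for tumour against inflamed liver. Endothelial markers were 6.82 and 9.89 in tumour and 27.0 and 12.2 in inflamed liver, against 10.9 and 11.1, with none of 5 passing for regimen. The part of these cell types in the members' differences was not tested.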

How the data were processed

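The authors' scanner files came from Agilent Feature Extraction 10.7.3.1, per the file headers (version 10.5 in the submitters' processing notes), with probes designed on mm9. They hold deposited processed intensities, corrected for background and left unscaled between arrays. The deposited series table gives the authors' log2 values, with array medians of 6.45 to 6.48 that tracked the log2 median spot signal (r = 0.996 to 0.999); no source used here gives their scaling.

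Control spots, outlier spots and 29 incomplete probes were removed, and repeated spots averaged. No spot was saturated. The log2 processed signal was centred on the 75th percentile of its array. RefSeq accessions of GRCm38.p6, versions removed, named 26912 of 41145 probes, and the probe with the highest mean represented its gene. Genes with 2 or more arrays well above background entered limma 3.58.1 (R 4.3.3; lmFit and eBayes with trend; two-sided; Benjamini-Hochberg at 0.05). The first model held 4 group means, and the second genotype with regimen, leaving 2 residual degrees of freedom each. Leaving out an array or adding slide as a block left fewer. In the first model single arrays were taken to vary as the pairs did. An "at least" fold replaced each dim array by its own value or by the dimmest probe well above background there, whichever was higher. Such a bound holds under the main processing only, and differences under another background correction could lie below it. The number of arrays limits the precision.

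Values on every array were given for Mcm2 to Mcm7, Pcna, Ccne1 and E2f1, for the 2 genes of each role with the largest difference between tumour and inflamed liver and by regimen, and for members that passed. Other lists gave up to 3 genes with the largest difference between tumour and inflamed liver. Gins1, Orc6, Dut and other members were added by value. Members and lists were chosen with earlier results of these data known. Simulated data with 200 changed genes tested the steps. Alternatives comprised normexp (offset 50), quantile scaling, median scaling, no filter, a common floor of -5.12, averaged probes, the authors' values, slide as a block, single slides and removal of each paired array. Principal components and counts of positive members by setting were added after seeing the data. One marker list is not reported here.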

Additional observations from a re-analysis of the deposited data

How the results depend on the processing

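No alternative turned the sign of a members' median (83 medians over 7 comparisons), and counts of passing members moved more. With normexp the median was 0.90 by regimen, 1.20 for tumour against healthy liver, 0.63 for inflamed against normal liver, 0.72 for the difference between genotypes and 0.78 for the comparison of the design text; the regimen difference of Orc1 turned to -0.17. With the array median, which moved the median of all genes to -0.44 for tumour against healthy liver, the members' medians were 0.98 by regimen, 1.27 for tumour and 0.61 for inflamed liver, and 5 and 1 members passed in the last 2. Quantile normalization gave medians of 0.78 for tumour against inflamed liver and 1.13 for the design text, and 0 members for inflamed liver. With the authors' values the medians were 1.11 by regimen and 0.72 for inflamed liver, and 4 members passed for tumour against healthy liver and 0 for inflamed liver. Values floored at a common level gave a median of 1.10 and 1 member by regimen, and 0 members in both single-genotype comparisons; 223 of 15382 genes then had no spread at all, and the cause was not tested. Without a filter 1 member passed for inflamed liver. With slide as a block 18 members passed for tumour against healthy liver, 5 for inflamed against normal liver and 2 for tumour against inflamed liver. Leaving out 1 array gave medians of 1.12 to 1.37 by regimen, 1.49 to 1.83 for tumour against healthy liver, 0.83 to 0.90 for inflamed against normal liver, 0.86 to 1.07 for their difference, 0.55 to 0.69 for tumour against inflamed liver, 0.13 to 0.20 for Fah against FCR and 0.55 to 1.36 for the design text. The counts were 17 to 28, 4 to 20, 2 to 7, 0 to 0, 0 to 1, 0 to 0 and 0 to 16 in the same order, and the 16 came without inflamed FCR replicate 2. By regimen 10 members (Brca1, Exo1, Gins2, Mcm10, Mcm2, Mcm4, Mcm5, Mcm6, Pcna and Uhrf1) passed in every setting except the common floor, where Mcm10 alone passed. Except where named, the cause of these moves was not tested. The share of all genes that passed in each alternative is not given here, so these counts are not read as a result about the members. The labels carry no replicate numbers, so there was no replicate number to block on; arrays were paired by regimen in the model of 2 comparisons and by slide as a block above. Dim signal limits Cdc6, Orc1, Ccne2 and Fancd2, whose differences near background are bounds or uncertain.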
